A study of Danio rerio with 12 samples.

Results

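The Hox cluster genes of zebrafish (Danio rerio) were followed across 12 Affymetrix zebrafish arrays hybridised with RNA of whole larvae at 96 hours post fertilisation (hpf). A probe set, the group of short probes that reports 1 transcript, was taken as a member when the array's annotation gave it 1 gene symbol beginning with hoxa, hoxb, hoxc or hoxd and a number. This found 59 probe sets among 15502 without the array's control probe sets. They stand for 42 of the 8793 genes that a probe set with 1 symbol names, and each gene is described by its brightest probe set. The members cover 7 clusters and all 13 paralog groups. All 42 symbols were matched to the RefSeq annotation of assembly GRCz12tu, used only for names and for the order of neighbours. That annotation lists 50 Hox genes, and 8 have no probe set among the members: hoxa13a, hoxb1b, hoxb13a, hoxc10a, hoxc12a, hoxc13b, hoxd12a and the pseudogene hoxa10ap.

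Hox genes encode homeodomain transcription factors that give cells along the head-to-tail axis their regional identity. In each cluster they lie in the order in which they are used along the body: paralog groups at one end act in the hindbrain and pharyngeal arches, those in the middle in the neck and trunk, and those at the other end in the tail and the outer part of the fins. Teleost fish carry duplicated clusters, named with a second letter (hoxaa, hoxab and so on), after a genome duplication. Hox proteins bind DNA together with TALE homeodomain cofactors (Pbx, Meis), retinoic acid opens the clusters from the anterior end, and Polycomb and Trithorax proteins keep genes silent or active once the pattern is set. In late larvae the nervous system, the fins and the axial skeleton are known places of Hox expression.

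The arrays carry 4 labels with 3 arrays each: 0.1 µM 17β-estradiol (E2) with 1 nM 2,3,7,8-tetrachlorodibenzo-p-dioxin (TCDD), 1 nM TCDD, 0.1 µM E2, and the solvent control, 0.1% dimethylsulfoxide (DMSO). E2 is the main natural estrogen, and TCDD is a dioxin that activates the aryl hydrocarbon receptor (AHR). All fish were wild type, from a commercial supplier and not from an inbred line. The chemicals, dissolved in DMSO, went into the medium in the last day before harvest, from 72 hpf, and each array stands for a pool of about 30 larvae. The sex of the larvae is not given in the labels. Each array's description holds a number and the letter B or C, and letter C is replicate 1 of every label. The series text speaks of hybridisation in 2 batches, and the letter is taken for that batch, which no label states.

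A pair of genes that respond to the exposures checked the labels. The signal of cyp1a, the classic AHR target, ran from 20170.0 to 23173.2 in 6 arrays and from 263.9 to 414.7 in the other 6. The high arrays were titled TCDD 1, E2+TCDD 1, E2+TCDD 2, E2+TCDD 3, E2 2 and E2 3. The signal of cyp19a1b, the brain aromatase gene that responds to estrogen, was 255.9 to 296.5 in the arrays titled E2 1, E2+TCDD 1, E2 3, E2+TCDD 3, DMSO 3 and TCDD 3. In the other 6 arrays it was 36.1 to 70.1. At least 1 of these genes went against the title in 6 of the 8 letter B arrays and in none of the 4 letter C arrays, so groups are called as labelled. The numbers form 2 runs. The 4 numbers of the first series occur with both letters, mostly under different titles: DMSO 2 of letter B shares its number with DMSO 1 of letter C, DMSO 3 with E2 1, E2 2 with TCDD 1, and E2 3 with E2+TCDD 1. The 4 higher numbers, the second series, occur in letter B only and belong to E2+TCDD 2, E2+TCDD 3, TCDD 2 and TCDD 3. A shared number may mean a shared RNA sample, which the labels do not say.

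Most Hox genes gave a modest signal. A gene is called dim where its mean log2(signal + 16) lay under the 25th percentile of all probe sets, a signal of about 66.5. By that measure 9 of 42 Hox genes were dim, and 32 of 42 lay under the 50th percentile, a signal of about 214. All 3 measured genes of paralog group 1 were dim: hoxa1a, hoxb1a (known from the hindbrain of the embryo) and hoxc1a. The other 6 dim genes were hoxa9a, hoxa11a, hoxb7a, hoxc6b, hoxc11b and hoxd13a, and the mean signals of the 9 ran from 8.45 for hoxc1a to 67.5 for hoxa9a. The threshold ran between hoxa9a, with a mean log2 value of 6.36, and hoxc12b, with 6.43. Being dim rests on the mean of 12 arrays. The signal of hoxa9a was 76.3 to 102.9 in letter C and 51.2 to 64.8 in letter B. That of hoxb7a was 43.5 to 67.4 in letter C and 63.0 to 83.6 in letter B, and neither gene was tested. In anterior paralog groups (1 to 3) 6 of 9 genes were not dim, in central groups (4 to 8) 14 of 16, and in posterior groups (9 to 13) 13 of 17. Signals of different probe sets rest on different probes, so their order describes the arrays and is not an order of transcript amounts.

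**Figure D1:**
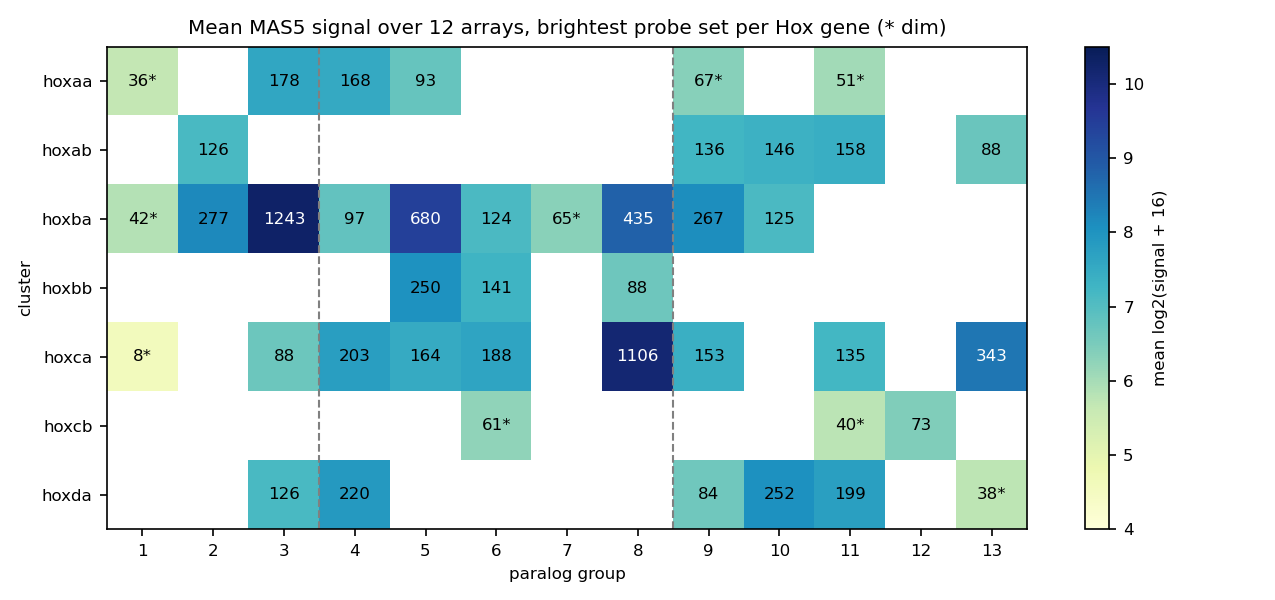
Mean MAS5 signal over the 12 arrays (number in each cell, linear scale) and mean log2(signal + 16) (colour) of the 42 Hox genes, with the 7 clusters down the page and the 13 paralog groups across; dashed lines part anterior, central and posterior groups, white cells hold no probe set and an asterisk marks a dim gene. The 4 brightest cells are hoxb3a (1243), hoxc8a (1106), hoxb5a (680) and hoxb8a (435), and the column of paralog group 1 is dim throughout.

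The hoxba cluster held the brightest Hox probe set of the array, that of hoxb3a, a gene of the caudal hindbrain. Its signal was 1268.9, 1269.8 and 1168.3 in the arrays labelled E2+TCDD, 1358.9, 1228.5 and 1253.2 in those labelled TCDD, 1182.1, 1200.0 and 1273.1 in those labelled E2, and 1322.3, 1230.6 and 1158.3 in those labelled DMSO (replicates 1, 2 and 3 in each). The groups overlapped throughout, and the highest array was 1.17 times the lowest. The mean over 12 arrays was 680 ± 48.2 for hoxb5a, 435 ± 25.8 for hoxb8a, 277 ± 40.1 for hoxb2a and 267 ± 77.2 for hoxb9a (SD, n = 12). The other 3 genes of the cluster that were not dim, hoxb4a, hoxb6a and hoxb10a, had means of 96.7 to 125. The 2 dim genes were hoxb1a and hoxb7a.

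In the hoxca cluster hoxc8a, a gene of the trunk, was the brightest. Its signal was 1030.8, 1185.1 and 1228.9 in the arrays labelled E2+TCDD, 1074.1, 1167.9 and 1412.1 in those labelled TCDD, 1006.7, 1068.6 and 1119.8 in those labelled E2, and 805.9, 1149.6 and 1025.7 in those labelled DMSO. The lowest value was that of DMSO 1 and the highest that of TCDD 3, and each labelled group overlapped every other. The next was hoxc13a, of the most posterior paralog group, with a mean of 343 ± 47.7 (SD, n = 12). The means of hoxc4a, hoxc5a, hoxc6a, hoxc9a and hoxc11a ran from 135 to 203, that of hoxc3a was 88.0, and hoxc1a was dim with a mean of 8.45. The high signal of hoxc8a rests on 1 of its 3 probe sets. The others had means of 76.4 ± 18.7 and 36.1 ± 16.6 (SD, n = 12), and the last of them was dim.

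The other clusters had lower signals. In hoxda the brightest probe set was that of hoxd10a, a posterior gene, with 301.7, 243.4 and 232.7 in the arrays labelled E2+TCDD, 251.3, 230.9 and 221.0 in those labelled TCDD, 240.4, 198.5 and 257.7 in those labelled E2, and 344.8, 240.0 and 264.8 in those labelled DMSO. DMSO 1 was the highest, and the groups overlapped. The means of hoxd4a and hoxd11a were 220 ± 29.5 and 199 ± 21.6, those of hoxd3a and hoxd9a were 126 ± 25.6 and 84.0 ± 12.3 (SD, n = 12), and hoxd13a, which patterns the outer part of fins and limbs, was dim. All 5 hoxab genes were above the threshold, with means of 88.3 for hoxa13b, 136 for hoxa9b, 146 for hoxa10b and 158 for hoxa11b. Among them hoxa2b, the selector gene of the second pharyngeal arch, had a mean of 126 ± 21.5. All 3 hoxbb genes were above it too, with 250 ± 67.6 for hoxb5b, 141 ± 24.0 for hoxb6b and 88.1 ± 27.2 for hoxb8b.

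In hoxaa 3 of 6 genes were not dim, and the brightest was hoxa3a, a gene of the hindbrain and pharyngeal arches. Its signal was 200.1, 153.3 and 182.8 in the arrays labelled E2+TCDD, 157.7, 162.8 and 167.1 in those labelled TCDD, 207.8, 178.2 and 191.1 in those labelled E2, and 216.6, 153.0 and 170.2 in those labelled DMSO. The labelled groups overlapped, except that every array labelled E2 lay above every array labelled TCDD. The means of hoxa4a and hoxa5a were 168 ± 22.0 and 93.4 ± 13.4 (SD, n = 12). In hoxcb only hoxc12b was above the threshold, with a mean of 73.4 ± 24.2 (SD, n = 12), and its arrays are given with the letters.

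Of the 42 genes, 29 had 1 probe set, 9 had 2 and 4 had 3, and 19 of the 59 probe sets were dim. The probe sets include 8 pairs with the same name except for the ending A1 or S1, listed under 1 sequence accession each. The S1 member was brighter in 8 of 8 pairs, on all 12 arrays in 6 of them, on 10 arrays for hoxb7a and on 11 for hoxc8a. All 8 A1 members were dim, and 2 of the S1 members were, those of hoxb7a and hoxc11a. For hoxb8b, for instance, the mean signal was 88.1 ± 27.2 for the S1 member and 32.8 ± 12.7 for the A1 member (SD, n = 12). Outside the Hox genes the S1 member was brighter in 18 of 22 such pairs.

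The signals of Hox genes varied over the 12 arrays about as much as those of all probe sets tested. The SD of log2(signal + 16) had a median of 0.20 over the 33 genes that were not dim, which were the ones tested, and of 0.20 over all 11626 probe sets tested. Hox genes were dimmer than most, with a median brightness percentile of 42.2 against 62.5 for the probe sets tested, and the median SD of all probe sets ran from 0.26 in the dimmest to 0.14 in the brightest of 5 bins of brightness. Within these bins the median Hox gene lay at percentile 31.2 of the SD, and 24 of 33 lay under the 50th percentile of their bin. The highest array was 1.17 to 2.78 times the lowest, with a median of 1.74 times, and stayed under 2 times for 27 of 33 genes. The labelled groups and both letters enter this spread.

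**Figure D2:**
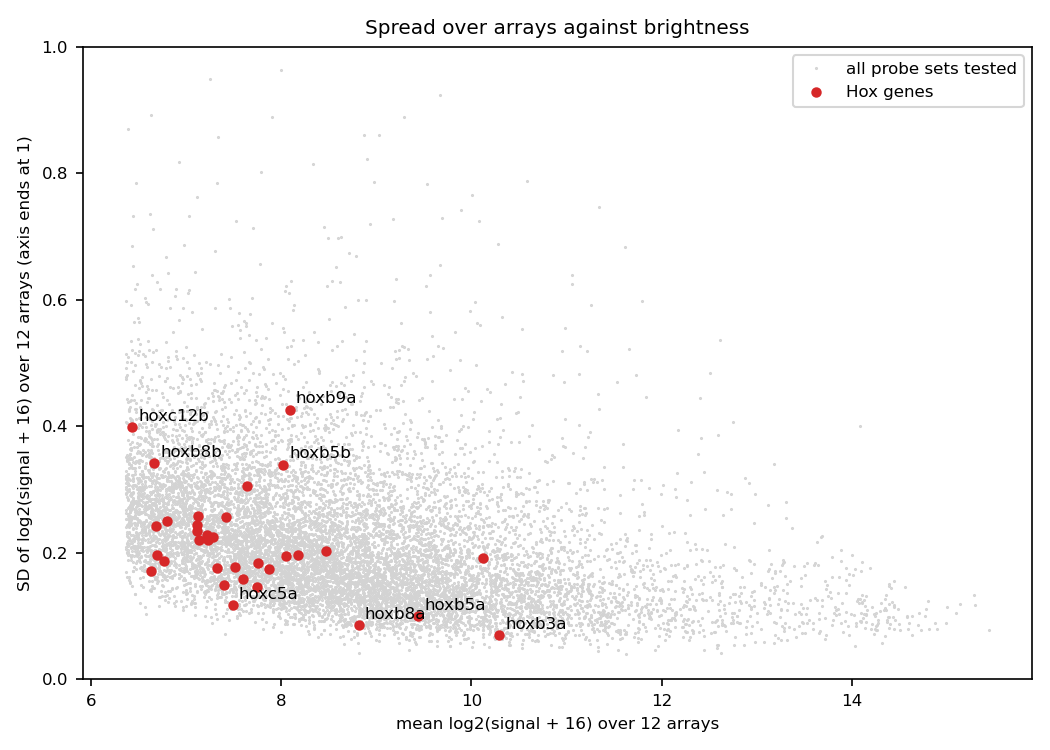
SD of log2(signal + 16) over 12 arrays (vertical axis) against mean log2(signal + 16) (horizontal axis) for the 11626 probe sets tested (grey) and the 33 Hox genes that were not dim (red), with the 4 smallest and 4 largest SDs named; 14 probe sets with an SD above 1 lie beyond the axis. SDs fall with brightness, hoxb3a, hoxb8a, hoxb5a and hoxc5a lie near the lower edge and hoxb9a near the upper.

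The 4 steadiest genes were hoxb3a, hoxb8a, hoxb5a and hoxc5a, with SDs of 0.07, 0.09, 0.10 and 0.12 on the log2 scale. Of the 4, 3 belong to hoxba, which holds 8 of the 33 genes tested. These 3 are also among the 4 Hox genes with the highest signals, and SDs over all probe sets fell with brightness. The signal of hoxb8a was 373.9, 399.6 and 438.9 in the arrays labelled E2+TCDD, 446.8, 417.9 and 453.4 in those labelled TCDD, 449.4, 449.9 and 458.0 in those labelled E2, and 451.8, 433.1 and 452.4 in those labelled DMSO. E2+TCDD 1 was the lowest, and the arrays labelled E2+TCDD overlapped those labelled TCDD and DMSO but not those labelled E2. For hoxb5a the values were 690.2, 661.0 and 707.1 in the arrays labelled E2+TCDD, 644.8, 719.3 and 773.3 in those labelled TCDD, 673.9, 673.5 and 725.6 in those labelled E2, and 623.6, 594.3 and 668.0 in those labelled DMSO. Its 3 arrays labelled DMSO were among the 5 lowest, and those labelled E2 did not overlap them. The signal of hoxc5a was 168.7, 151.6 and 175.6 in the arrays labelled E2+TCDD, 137.4, 184.9 and 162.6 in those labelled TCDD, 182.5, 151.4 and 161.0 in those labelled E2, and 180.2, 158.4 and 156.3 in those labelled DMSO. The arrays labelled TCDD spanned the whole range.

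The 4 most variable genes were hoxb9a, hoxc12b, hoxb8b and hoxb5b, with SDs of 0.43, 0.40, 0.34 and 0.34. Their values followed the letter, as the plot of deviations by array shows, and are given with the comparison of letters. With the letter as a term, the SD left was 0.15 for hoxb9a, 0.28 for hoxc12b, 0.22 for hoxb8b and 0.21 for hoxb5b. The median SD left was 0.17 over the 33 Hox genes and 0.16 over all probe sets tested.

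**Figure D3:**
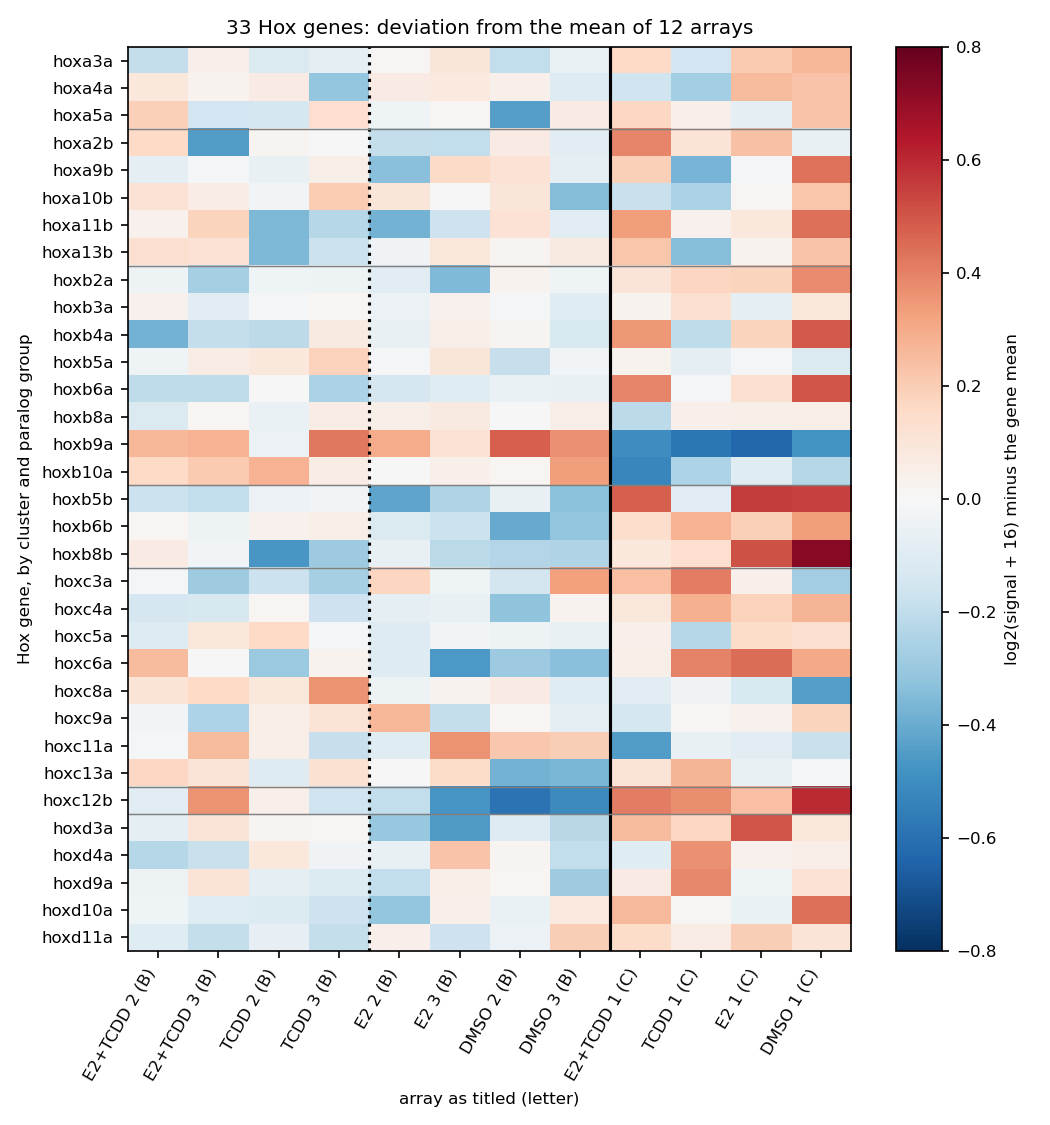
Deviation of log2(signal + 16) from the gene's mean over 12 arrays (colour) for the 33 Hox genes that were not dim, in rows by cluster and paralog group, with arrays in columns under their title and letter. The dotted line parts the second from the first number series and the solid line letter B from letter C; the most visible pattern runs with the letter, with hoxb9a low and hoxb5b, hoxb8b and hoxc12b mostly high in letter C.

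The labelled exposures were compared with the labelled control in limma, with the letter as a batch term and p-values adjusted by Benjamini-Hochberg over all 11626 probe sets tested. None of the 33 Hox genes passed an adjusted p of 0.05 for E2+TCDD, for TCDD or for E2 against DMSO. The share of all probe sets that passed was 0.0602% for E2+TCDD (7 probe sets), 0.0% for TCDD and 0.0% for E2, so 0 of 33 is near the background. At an unadjusted p under 0.05 there were 2 of 33 Hox genes for E2+TCDD, 4 for TCDD and 3 for E2. The share of all probe sets was 11.6% (1348), 9.58% (1114) and 6.62% (770) in that order. The median Hox difference was -0.0030 for E2+TCDD, -0.016 for TCDD and -0.0067 for E2 on the log2 scale, and the median of all probe sets was -0.00038, 0.0035 and 0.0043. The 3 comparisons share their DMSO arrays. In whole larvae, fewer cells of a type and less RNA per cell cannot be told apart. Because 6 titles went against their marker genes, these values describe labels and may not describe exposures.

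The intervals show what these comparisons could miss. The 95% intervals of the 33 differences ran from -0.58 to 0.83 for E2+TCDD, from -0.70 to 0.69 for TCDD and from -0.60 to 0.54 for E2, on the log2 scale. All 33 stayed within a 2-fold change, a log2 difference of 1, in each comparison. Within a log2 difference of 0.5 there were 28 for E2+TCDD, 21 for TCDD and 28 for E2. These bounds hold for the labels and, with titles that went against their marker genes, may not hold for exposures.

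**Figure D4:**
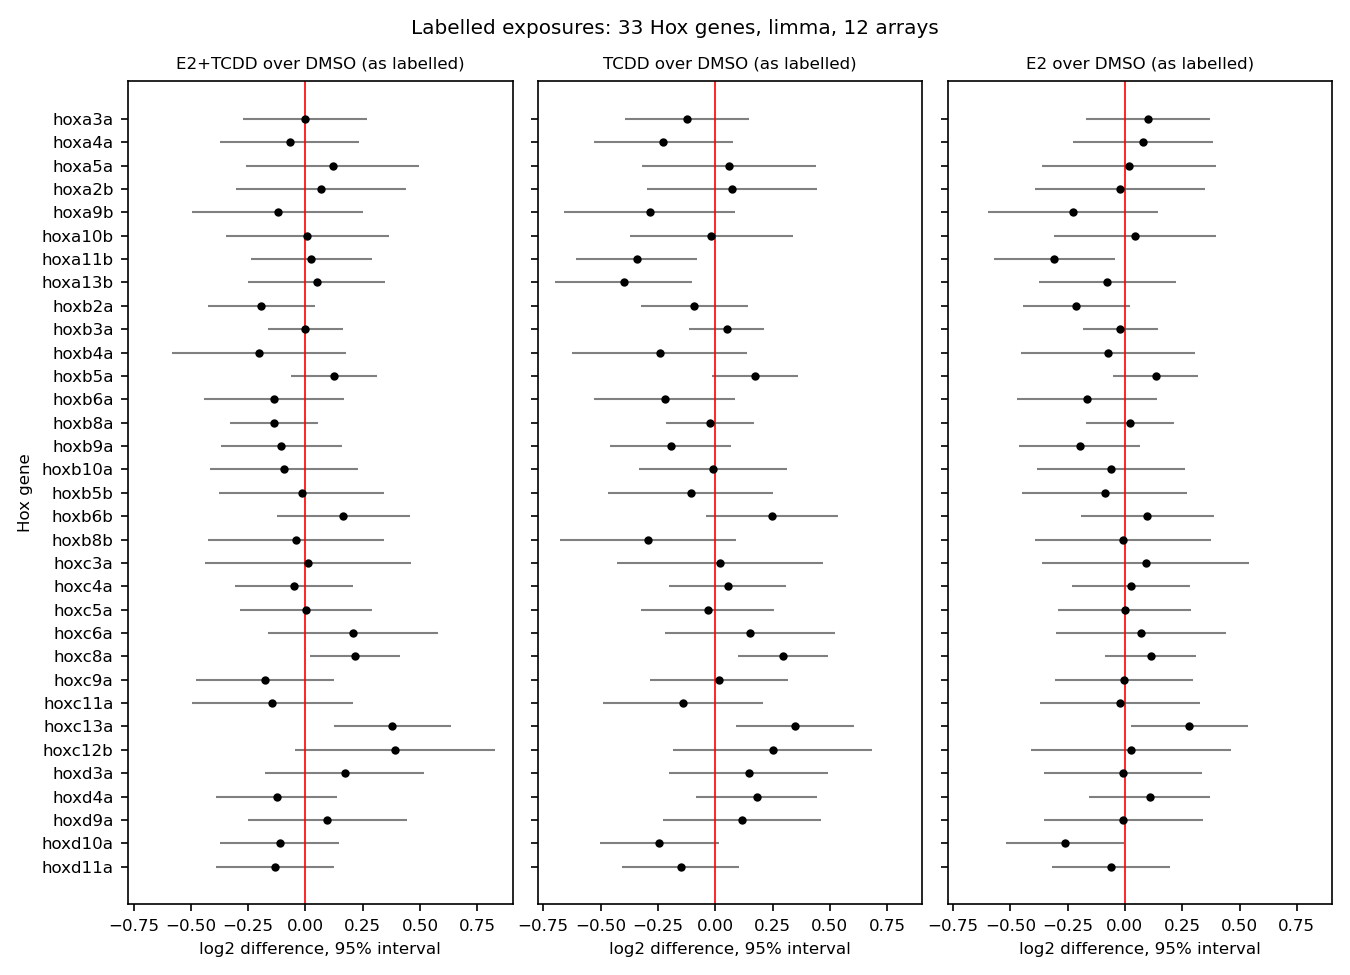
Log2 difference (points) with its 95% interval (lines) from limma on 12 arrays for the 33 Hox genes that were not dim, for E2+TCDD, TCDD and E2 over DMSO as labelled, in rows by cluster; the red line marks no difference. No gene passed adjustment, every interval lies within -1 and 1, and hoxc13a lies right of the line in all 3 panels.

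The Hox gene with the smallest p for E2+TCDD was hoxc13a, a posterior gene. Its signal was 367.9, 383.6 and 365.5 in the arrays labelled E2+TCDD, 413.6, 314.9 and 370.1 in those labelled TCDD, 325.6, 338.6 and 378.0 in those labelled E2, and 336.6, 257.8 and 259.9 in those labelled DMSO. The arrays labelled E2+TCDD did not overlap those labelled DMSO, and DMSO 2 and DMSO 3 were the lowest of all 12. The difference from DMSO was 0.38 ± 0.12 for E2+TCDD (adjusted p = 0.224), 0.35 ± 0.12 for TCDD (adjusted p = 0.359) and 0.28 ± 0.12 for E2 (adjusted p = 0.738; log2 ± SE, limma). With the letter B arrays alone, the difference for E2+TCDD was 0.51 with an adjusted p of 0.0471 (limma). Then hoxc13a was the only 1 of 33 Hox genes called, among 259 called of all 11626 probe sets tested. Within letter B the arrays labelled E2+TCDD belong to the second number series and those labelled DMSO to the first. Label and series cannot be told apart there. In letter C, with 1 array a label, the difference of hoxc13a for E2+TCDD was 0.12.

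For TCDD the smallest p was that of hoxc8a, given above by array. It was higher by 0.30 ± 0.09 in the arrays labelled TCDD (adjusted p = 0.303). In those labelled E2+TCDD it was higher by 0.22 ± 0.09 (adjusted p = 0.376), and neither passed (log2 ± SE, limma). The other hoxc8a probe set above the threshold had the opposite sign. It differed by -0.25 ± 0.21 for TCDD (adjusted p = 0.749) and by -0.04 ± 0.21 for E2+TCDD (adjusted p = 0.966, limma). The gene hoxa13b, which acts in the outer fin, had 104.8, 97.2 and 96.0 in the arrays labelled E2+TCDD, 65.7, 64.5 and 75.8 in those labelled TCDD, 89.5, 85.6 and 94.1 in those labelled E2, and 105.0, 89.0 and 92.9 in those labelled DMSO. The 3 arrays labelled TCDD were the lowest of the 12. The difference from DMSO was -0.40 ± 0.14 (log2 ± SE, limma, adjusted p = 0.368). Its size is uncertain, because the signals of TCDD 1 and TCDD 2 lie under the dim threshold. Of the 3 arrays, TCDD 2 and TCDD 3 were low for cyp1a. With groups formed by number, as described below, the TCDD difference was -0.31 ± 0.22 (log2 ± SE, limma, adjusted p = 0.703).

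The remaining small p-values were for hoxa11b and hoxd10a with E2 and for hoxc12b with E2+TCDD. The signal of hoxa11b, a posterior gene known from the developing pectoral fin, was 199.9, 159.5 and 177.5 in the arrays labelled E2+TCDD, 159.4, 117.3 and 130.2 in those labelled TCDD, 165.9, 116.0 and 136.8 in those labelled E2, and 216.3, 169.9 and 145.0 in those labelled DMSO. The arrays labelled E2+TCDD lay just above those labelled TCDD, all other groups overlapped, and E2 2 and TCDD 2 were the lowest. Differences from DMSO were -0.34 ± 0.12 for TCDD (adjusted p = 0.380) and -0.31 ± 0.12 for E2 (adjusted p = 0.730). For hoxd10a and E2 the difference was -0.26 ± 0.12 (adjusted p = 0.746), and for hoxc12b and E2+TCDD it was 0.39 ± 0.20 (adjusted p = 0.487; log2 ± SE, limma). That of hoxc12b was 0.63 without DMSO 1, 0.21 without E2+TCDD 3 and 0.053 with the number series as a further block. Its signals in DMSO 2 (41.3), DMSO 3 (44.8) and E2+TCDD 2 (65.0) lie under the dim threshold, so the size of its difference is uncertain.

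A test of any difference among the 4 labels (F, limma) called 0 of 33 Hox genes and 0 of all probe sets, and 4 Hox genes and 1135 probe sets had an unadjusted p under 0.05. The sign of the difference from DMSO was the same in letter B and in letter C for 14 of 33 Hox genes with E2+TCDD, 23 with TCDD and 11 with E2. Letter C has 1 array for each label, so these signs have no replicate check there. Signs were not counted over all probe sets, so no background stands beside these counts and nothing particular to Hox genes is read from them. The letters also differed in marker state under a label: cyp1a was 323.8 in TCDD 2 and 263.9 in TCDD 3 of letter B, and 21109.4 in TCDD 1 of letter C.

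Groups can also be formed by number, giving each letter B array of the first series the label of the letter C array with its number; this leaves 8 arrays, 2 for each label. In these 8 arrays cyp1a was 21022.5 to 23173.2 in the 4 whose label by number holds TCDD and 329.4 to 414.7 in the other 4. Likewise cyp19a1b was 255.9 to 296.5 in the 4 whose label by number holds E2 and 45.7 to 70.1 in the other 4, so both genes went with the label by number in all 8. No Hox gene was called for E2+TCDD, TCDD or E2 against DMSO, beside 1.17%, 1.66% and 0.0172% of all probe sets (limma). At an unadjusted p under 0.05 there were 2, 5 and 0 Hox genes in that order, beside 9.71%, 11.0% and 4.05% of all probe sets. The smallest p was that of hoxa9b, a posterior gene, with 103.0 and 100.3 in the arrays that are TCDD by number (letters B and C) and 146.7 and 187.3 in those that are DMSO. The pairs did not overlap, and the difference was -0.63 ± 0.19 (log2 ± SE, limma, adjusted p = 0.152). With TCDD it was -0.50 ± 0.16 for hoxb5b (adjusted p = 0.213) and -0.45 ± 0.18 for hoxa11b (adjusted p = 0.348). The 2 arrays of each label share a number and may share an RNA sample. The SEs, p-values and intervals by number then measure a spread between arrays that may be technical. They may not bound the effect of an exposure. The intervals were wider than with 12 arrays, with a median half-width of 0.39 against 0.30. Those of E2+TCDD and E2 stayed within a log2 difference of 1 for all 33 genes. For TCDD 32 did, and that of hoxa9b reached -1.03. Within 0.5 there were 14 for E2+TCDD, 12 for TCDD and 15 for E2. By number hoxc13a differed by 0.32 ± 0.15 for E2+TCDD, 0.33 ± 0.15 for TCDD and -0.02 for E2 (log2 ± SE).

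The second number series was compared with the first within letter B, 4 arrays against 4. Among letter B arrays the second series holds the labels E2+TCDD and TCDD and the first the labels E2 and DMSO, so series and label cannot be told apart. By the marker genes both series held the same states. Both cyp1a and cyp19a1b were high in E2+TCDD 3 and E2 3, and neither in TCDD 2 and DMSO 2. Only cyp1a was high in E2+TCDD 2 and E2 2, and only cyp19a1b in TCDD 3 and DMSO 3. No Hox gene was called, beside 0.447% of all probe sets (52, limma), and 5 of 33 had an unadjusted p under 0.05, beside 14.7% of all probe sets. The gene with the smallest p was hoxc12b, with 65.0, 94.7, 72.9 and 61.3 in the second series and 59.3, 46.4, 41.3 and 44.8 in the first. The series did not overlap, and the fit gave 0.48 ± 0.16 (log2 ± SE, limma, adjusted p = 0.206), a size that is uncertain because all 4 signals of the first series lie under the dim threshold. The difference was 0.19 ± 0.07 for hoxc8a (adjusted p = 0.247) and 0.26 ± 0.11 for hoxb6b (adjusted p = 0.274). The signal of hoxb6b was 141.2, 134.8, 143.2 and 144.7 in the second series and 127.7, 122.2, 101.6 and 108.7 in the first. Of 7 neuron markers 1 was called, elavl3, higher by 0.28 ± 0.05 in the second series (log2 ± SE, limma, adjusted p = 0.0490). The mean log2 signal of the 7 neuron markers was 11.65 to 11.74 in the second series and 11.56 to 11.58 in the first. Their median difference was 0.12. Among other tissue marker lists it was -0.39 for exocrine pancreas, -0.25 for hepatocytes and 0.16 for skin, with no marker called. The part of these markers in the Hox values was not tested.

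Letter B was compared with letter C over the 4 numbers that occur with both, so that each array had a partner of the same number. Here 9 of 33 Hox genes passed, 27.3%, beside 29.6% of all probe sets (3436, limma), a share near the background. Of the 9, hoxb9a was higher and 8 were lower in letter B: hoxb2a and hoxd3a (anterior), hoxb5b, hoxb6b, hoxb8b and hoxc6a (central), and hoxa11b and hoxc12b (posterior). Over all probe sets 14.7% passed as higher and 14.9% as lower. The median difference was -0.16 over the Hox genes, of which 24 of 33 were lower in letter B, and 0.00 over all probe sets. In each letter C array the median Hox gene lay 0.03 to 0.22 above its own 12-array mean, most in DMSO 1, where 25 of 33 genes did. In the letter B arrays this median lay between -0.08 and 0.01, and for all probe sets tested it lay between -0.01 and 0.02 on every array.

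**Figure D5:**
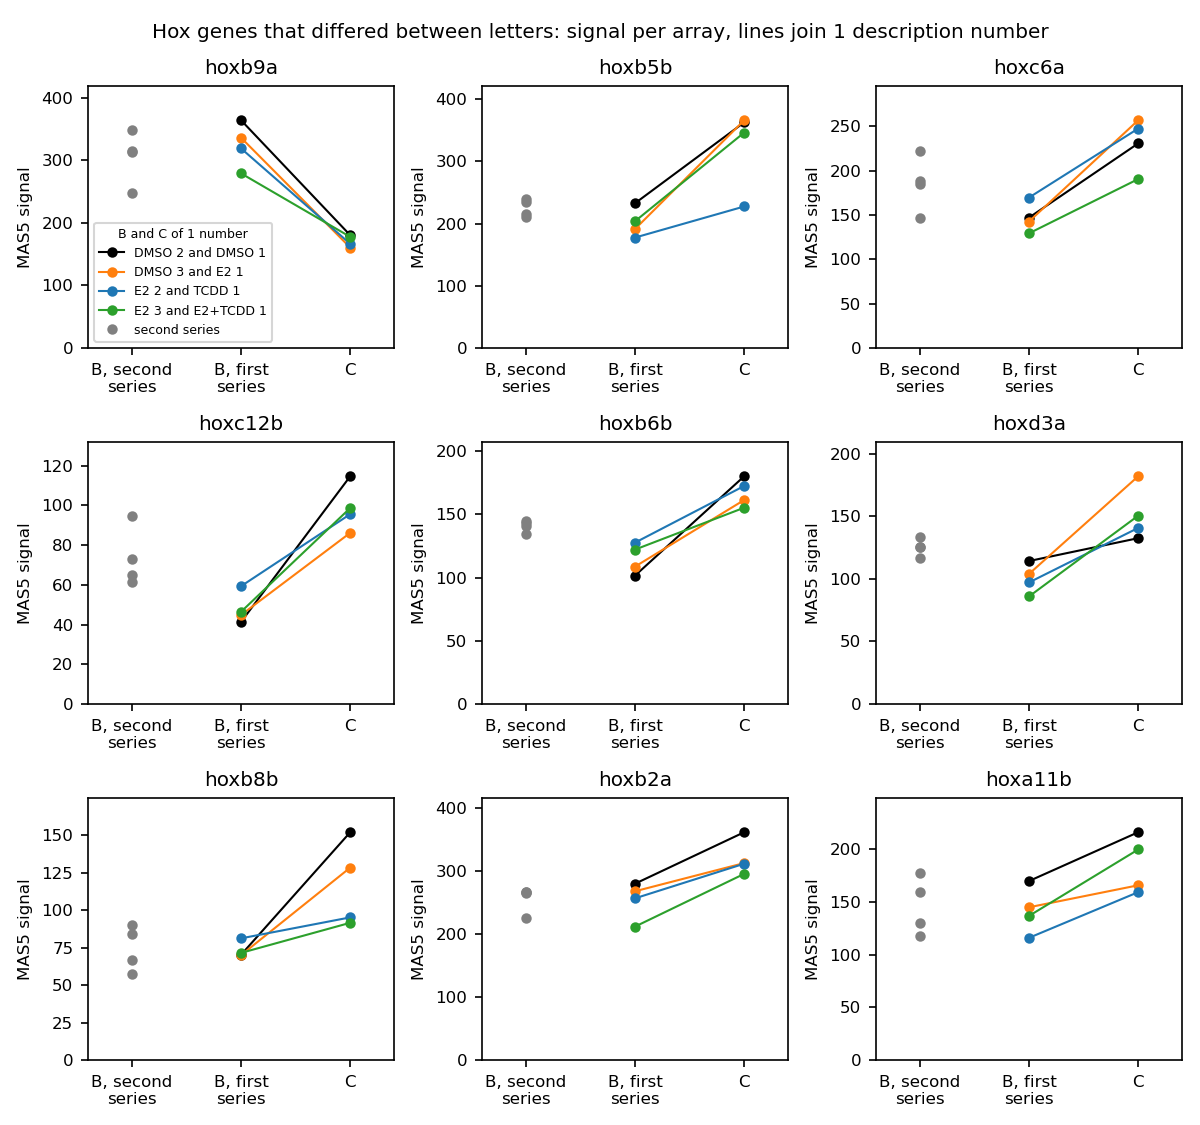
MAS5 signal (vertical axes, linear, from 0) of the 9 Hox genes called between letters, in the second series of letter B (grey), the first series of letter B and letter C; each point is an array and lines join arrays of 1 description number. For hoxb9a all 4 lines fall towards letter C and for the other 8 genes all 4 rise.

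The Hox gene that was higher in letter B was hoxb9a, a gene of the posterior trunk. Its signal was 363.8, 335.9, 318.8 and 278.9 in letter B and 180.0, 160.3, 166.3 and 177.4 in letter C, for the 4 shared numbers in the order DMSO 2, DMSO 3, E2 2 and E2 3 in letter B and DMSO 1, E2 1, TCDD 1 and E2+TCDD 1 in letter C. All 4 letter B arrays lay above all 4 of letter C, and the second series, with 247.5 to 348.8, did so too. The difference was 0.86 ± 0.11 (log2 ± SE, limma, adjusted p = 1.78e-04), or 1.81-fold.

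All 3 hoxbb genes were lower in letter B. The signal of hoxb5b, a central gene that responds to retinoic acid in zebrafish embryos, was 232.5, 191.1, 177.4 and 203.6 in letter B and 362.6, 366.0, 227.4 and 346.2 in letter C, in the same order of numbers. Each number was lower in letter B, but the ranges overlapped through TCDD 1 of letter C. The difference was -0.64 ± 0.12 (log2 ± SE, limma, adjusted p = 0.00134). In the second series hoxb5b had 214.6 in E2+TCDD 2, 210.0 in E2+TCDD 3, 235.2 in TCDD 2 and 239.2 in TCDD 3. For hoxb6b the signals were 101.6, 108.7, 127.7 and 122.2 in letter B and 180.3, 161.5, 172.6 and 155.4 in letter C, which did not overlap. For hoxb8b they were 70.1, 69.9, 81.1 and 71.4 in letter B and 151.9, 128.3, 95.1 and 91.5 in letter C, again without overlap. Differences were -0.49 ± 0.13 for hoxb6b (adjusted p = 0.0140) and -0.55 ± 0.17 for hoxb8b (adjusted p = 0.0239).

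The signal of hoxc12b was 41.3, 44.8, 59.3 and 46.4 in letter B and 114.7, 86.2, 95.6 and 98.7 in letter C. The letters did not overlap, and the fit gave -0.85 ± 0.17 (adjusted p = 0.00277). All 4 letter B signals lie under the dim threshold and the gene was tested only through its higher arrays, so the size of this difference is uncertain. Without hoxc12b, 8 of 32 Hox genes were called, 25%, beside 29.6% of all probe sets. The central gene hoxc6a had 146.9, 142.5, 169.5 and 129.2 in letter B and 230.6, 256.7, 247.3 and 190.4 in letter C, without overlap, and a difference of -0.60 ± 0.12 (adjusted p = 0.00226). The anterior gene hoxd3a had 114.2, 103.9, 97.1 and 85.9 in letter B and 132.5, 182.0, 140.7 and 150.5 in letter C, also without overlap, and a difference of -0.52 ± 0.14 (adjusted p = 0.0143).

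The smallest of the called differences were those of hoxb2a and hoxa11b. The signal of hoxb2a, a hindbrain gene, was 279.8, 267.8, 256.6 and 211.7 in letter B and 361.6, 312.6, 311.6 and 295.5 in letter C, and the letters did not overlap. Its difference was -0.32 ± 0.10 (adjusted p = 0.0306), and that of hoxa11b was -0.35 ± 0.12 (adjusted p = 0.0457; log2 ± SE, limma), with letters that overlapped. In all, 10 of 33 Hox genes had ranges that did not overlap between the 4 arrays of each letter, beside 27.5% of all probe sets. Among the 10 is hoxc12b, whose 4 letter B signals lie under the dim threshold. With all 8 letter B arrays against the 4 of letter C, 6 of 33 Hox genes did not overlap, beside 18.6% of all probe sets.

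Leaving out 1 array, which takes its partner out of the comparison, left 4 to 9 Hox genes called and fewer of all probe sets as well. There were 4 Hox genes without E2 1 (beside 20.5% of all probe sets) and 5 without DMSO 1 (17.2%), DMSO 2 (17.1%) or DMSO 3 (20.5%). The calls of hoxb9a, hoxb5b, hoxc12b and hoxc6a held under every alternative run for them. The call was lost in 11 of 17 alternatives for hoxa11b (adjusted p up to 0.169), 6 of 18 for hoxb2a (up to 0.127), 4 of 17 for hoxb8b (up to 0.153), 4 of 17 for hoxd3a (up to 0.0785) and 3 of 17 for hoxb6b (up to 0.0872).

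Some technical controls and the means of 2 of 9 tissue marker lists also separated the letters. Of all single probe sets tested, 18.6% separated the 8 letter B arrays from the 4 of letter C. The ratio of the 3′ to the 5′ probe set of gapdh, which rises where the labelled RNA is shorter, was 1.72 to 2.18 in letter B and 1.36 to 1.58 in letter C. The same ratio of acta1 overlapped, with 5.74 to 10.8 in letter B and 5.19 to 10.9 in letter C. The hybridisation control BioC gave signals of 1080 to 1415 in letter B and 454 to 649 in letter C. The poly-A control DapX gave 2267 to 2924 in letter B and 685 to 839 in letter C. The mean log2 signal of the 5 spinal cord and hindbrain markers that were not dim was 8.82 to 8.96 in letter B and 8.67 to 8.75 in letter C. Of this list lhx3 was dim and left out, and slc18a3a and lhx1a were called higher. For the 6 pectoral fin markers that were not dim the mean was 9.60 to 9.75 in letter B and 9.76 to 9.90 in letter C. Here tbx5a and fgf24 were dim and left out, and and2 and bmp2b were called lower. The mean signals of the other 7 lists (neurons, skeletal muscle, hepatocytes, exocrine pancreas, erythrocytes, skin and lens) overlapped between letters, for neurons with 11.56 to 11.74 in letter B and 11.57 to 11.63 in letter C. Called in these lists were stmn2a (higher) and gap43 (lower) for neurons, and prss1 and ela2l (lower) for exocrine pancreas. For erythrocytes hbbe2 was higher and alas2 lower, and actc1b (skeletal muscle) and crybb1 (lens) were lower. Between letters 29.6% of all probe sets were called, and nothing particular to any list is read from these calls. The part of these controls and markers in the Hox differences was not tested.

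Where a gene had more than 1 probe set, its probe sets often differed between letters. Of the 7 genes with 2 probe sets above the threshold, the sign of the letter difference was the same in 3 (hoxb9a, hoxc8a and hoxd4a) and not in 4 (hoxa3a, hoxb10a, hoxb2a and hoxb8a). The second probe set of hoxb9a differed by 0.09 (adjusted p = 0.722), so the call rests on the brightest. The second probe set of hoxa3a had 131.8 to 144.7 in letter B and 70.8 to 93.8 in letter C, a difference of 0.69 with an adjusted p of 0.00287, whereas the brightest differed by -0.16 (adjusted p = 0.385; limma). For hoxb2a the second probe set differed by 0.03 (adjusted p = 0.926), beside -0.32 for the brightest.

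Other genes of the Hox pathway, in lists chosen with results of these data known, were read in the same fits. Of 11 TALE cofactor genes, 14 of retinoic acid synthesis, breakdown, binding and receptors, 18 of the Polycomb and Trithorax groups, 10 of other homeobox families and 3 upstream regulators, none was called for E2+TCDD, TCDD or E2 as labelled, or between number series. Between letters, where 29.6% of all probe sets were called, the lists had 4 of 11, 5 of 14, 3 of 18, 1 of 10 and 0 of 3 called in the same order, and nothing particular to them is read from these counts. The TALE genes were meis2b (0.52 ± 0.08, adjusted p = 4.17e-04) and pbx2 higher in letter B, and meis1a and pbx4 lower. Among the retinoic acid genes the binding proteins crabp2a (0.54 ± 0.10) and crabp2b (0.48 ± 0.10) and the degrading enzyme cyp26b1 (0.36 ± 0.11) were higher, and the receptors rarab (-0.49 ± 0.11) and rxrga (-0.41 ± 0.13) lower in letter B (log2 ± SE, limma). Of the Polycomb and Trithorax genes kdm6ba and men1 were higher and kdm6al lower, and of the other homeobox genes dlx1a was lower. By number, crabp2a was higher with TCDD (0.64 ± 0.14, adjusted p = 0.0291), and no other gene of these lists was called.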

How the data were processed

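The deposited values are MAS5 signals (intensity on a linear scale, 1 per probe set). The authors made them with Affymetrix Expression Console, according to the submitters' processing notes, which name no versions. They were used without further scaling, since each array's trimmed mean lay between 496 and 498, and were transformed to log2(signal + 16). The table holds 15617 probe sets, 115 of them controls, which were dropped. Symbols came from the platform annotation, updated through Entrez IDs for 10711 probe sets (1 changed); 10795 had 1 symbol, 135 several and 4572 none. The array files name no build, and RefSeq (assembly GRCz12tu) served only for names and neighbours, so no positions are printed. Probe sets with a mean under the 25th percentile were left out of tests, which left 11626. The precision is limited by the number of arrays; the values carry no counts.

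Tests used limma 3.58.1 in R 4.3.3 (lmFit, eBayes with a variance trend), with two-sided tests called at a Benjamini-Hochberg adjusted p of 0.05, on labelled group plus letter (12 arrays), on number plus letter (8 arrays, also for groups by number) and on number series (8 arrays). The fits were tested on simulated data. After the letter, arrays of 1 number deviated together (r of 0.16 to 0.24 across probe sets in 4 of 4 pairs), but so did 4 of 12 pairs of different numbers (r of -0.28 to 0.24 over the 12), so this is not specific to a shared number. In those 4 pairs of different numbers cyp1a was high in both arrays or low in both. In every other pair of different numbers it was high in 1 array only. The labels speak of biological replicates; for arrays that share a number, p-values measure the spread between arrays, which may be technical.

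The members, gene lists, tests and alternatives were chosen with earlier results of these data known. Array values are given by rule for the brightest gene of each cluster, genes called, the 3 smallest p-values in a labelled or series comparison, and the 4 largest and smallest SDs. For some genes given with the letters, only the arrays of the shared numbers are listed. Probe-set names (A1, S1) were looked at after values were seen. Alternatives changed the pseudocount, filter, normalisation, variance trend, weights, batch terms and arrays.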

Additional observations from a re-analysis of the deposited data

Results flagged for a closer look

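For each of the 33 Hox genes the 4 arrays of letter B's second series, of its first series and of letter C were examined, 99 sets of 4 in all, for an array that stood apart from the other 3. This was so in 6 of 99, where about 5% are expected by chance. In the second series of letter B, TCDD 3 was low for hoxa4a, with 131.9 beside 170.2 to 178.4, and E2+TCDD 3 was low for hoxb2a, with 225.5 beside 265.8 to 267.1. In the first series DMSO 3 was high for hoxb10a, with 158.8 beside 122.6 to 126.8, and E2 2 was high for hoxb8b, with 81.1 beside 69.9 to 71.4. In letter C, E2+TCDD 1 was low for hoxb8a, with 373.9 beside 446.8 to 451.8, and TCDD 1 was low for hoxb5b, with 227.4 beside 346.2 to 366.0.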

How the results depend on the processing

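The count of 0 Hox genes called held under every alternative run for TCDD and E2 against DMSO and for the number series. For E2+TCDD it held under all but the letter B arrays alone, which called 1 (hoxc13a) and where label and number series coincide. The titles' replicate numbers coincide with the letter for replicate 1. After label and letter means were taken out, r across probe sets was -0.23 to 0.02 for letter B arrays of the same replicate number. It was -0.25 to 0.04 for those of different replicate numbers. Taking out these means lowers every r, so pairing by replicate number cannot be judged from them. With a replicate block in place of the letter 0 Hox genes were called in each labelled comparison. The count of 9 between letters (29.6% of all probe sets) became 3 of 10 tested with a filter at the 50th percentile (32.6%), and 14 of 33 on all 12 arrays with the labelled group (38.0%); leaving out 1 array gave 4 to 9 there and 0 to 0 in the other 4 comparisons. Low signal limited the tests, judged by rank among all probe sets and not against a measured background. By this rank 9 of 42 genes were dim and were not tested, and 32 were dim with the filter at the 50th percentile. By number the difference turned to -0.033 for hoxc12b (E2+TCDD) and to -0.017 for hoxc13a (E2), and that of hoxc8a between series to -0.031 on all 12 arrays; the cause was not tested. Of the other values of named genes, 406 kept their direction and side of the threshold or, for SDs, moved by less than the spread, 28 lost a call and 1 gained it.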

Other observations

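For the brightest probe set of each Hox gene, the letter difference also went with the probe set's name, as it did over all probe sets. This was noticed after the values were seen. Of the 6 Hox genes whose brightest probe set has A before the last number in its name, 4 were higher in letter B, with a median log2 difference of 0.26. Among all tested probe sets so named 60.1% were higher, with a median of 0.07, so the Hox share was near the background. Of the 27 Hox genes with S in that place, 5 were higher in letter B, with a median of -0.22. Among all tested probe sets so named 38.0% were higher, with a median of -0.08. In the pairs named alike except for A1 or S1, the A1 difference lay above the S1 difference for hoxa10b, hoxb8b and hoxd3a. It lay below for hoxb7a, hoxb8a, hoxb10a, hoxc8a and hoxc11a, and all these A1 probe sets were dim.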
